A study of Mus musculus with 14 samples.

Results

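A set of 10 genes of peroxide removal and of ferroptosis was followed in the mouse kidney before and after renal ischemia/reperfusion injury (IRI), in which the blood supply of the kidney is interrupted and then restored. The genes were taken by their symbols, by a rule that uses no measured value, though earlier results of these data were known when they were chosen. They made up 10 of the 24411 genes listed for each library: the glutathione peroxidases Gpx1, Gpx3 and Gpx4, the ferroptosis genes Acsl4, Lpcat3, Alox15 and Aifm2, and the antioxidant enzymes Sod1, Sod2 and Cat. Bulk RNA sequencing covered whole kidneys of male mice aged 8 weeks, of the strain labelled C57/B6, with 4 libraries at day 0 and 5 libraries each at day 1 and day 3. No transgene, deletion or drug is given for any of the 14 kidneys, and whether the day 0 mice had sham surgery is not given in the sources used here. Nothing in the labels says that the libraries of a day came from separate mice, so the p-values measure only the spread between these libraries.

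The libraries held 16485636 to 17935503 reads on genes at day 0, 13399023 to 20476979 at day 1 and 12485579 to 19168972 at day 3. The numbers by which the files were named had 3 digits in day 1 replicates 1 and 2 and in day 3 replicates 1, 2 and 3, and 1 digit in all other libraries. No source used here says what the number format marks. All day 0 libraries were of the 1-digit format, so that in the 3-digit libraries day and format cannot be told apart from day 0, and the results on the 10 genes are given also by format. The markers of the kidney tubule were abundant throughout. The most abundant proximal tubule marker was Kap, with a mean of 19785 CPM over all libraries, where CPM is the count of a gene relative to the TMM-scaled total of its library and TMM is a scaling that removes shifts shared by most genes.

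Ferroptosis is a form of cell death in which phospholipids that carry polyunsaturated fatty acids are oxidised with the help of iron until membranes fail. The enzyme Acsl4 activates polyunsaturated fatty acids and Lpcat3 places them into phospholipids, while the lipoxygenase Alox15 can oxidise them. Gpx4 reduces the resulting lipid hydroperoxides with glutathione, and Aifm2, also known as FSP1, protects membranes in parallel by reducing coenzyme Q. Gpx1 is the glutathione peroxidase of the cytosol and mitochondria, and Gpx3 is secreted, the kidney being the main source of the enzyme in plasma. Sod1 and Sod2 turn superoxide into hydrogen peroxide in the cytosol and the mitochondria, and catalase, encoded by Cat, breaks hydrogen peroxide down in peroxisomes. Proximal tubules, rich in mitochondria and peroxisomes, are the part of the kidney best known for ischemic damage.

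The 3 peroxidases share a feature that can be read in their sequence, since each is a selenoprotein whose active site selenocysteine is encoded by a TGA triplet that elsewhere ends translation. The coding sequence around this triplet is shown for each of them because it encodes their catalytic site. Sequences come from the GENCODE M21 transcripts on GRCm38 (mm10), 5′ to 3′, with 21 bases on each side, and the capitals mark the selenocysteine triplet.
Gpx1: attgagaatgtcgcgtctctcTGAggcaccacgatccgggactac
Gpx3: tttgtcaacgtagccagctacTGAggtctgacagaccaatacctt
Gpx4: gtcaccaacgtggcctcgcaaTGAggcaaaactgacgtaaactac
The Gpx1 triplet lay in exon 1 of 2 at chr9:108339451-108339453, the Gpx3 triplet in exon 2 of 5 at chr11:54907256-54907258, and the Gpx4 triplet in exon 3 of 7 at chr10:80054737-80054739, all on the plus strand. Of the 45 bases, Gpx1 and Gpx4 shared 25, Gpx3 and Gpx4 shared 24, and Gpx1 and Gpx3 shared 21. The annotation names 1 pseudogene after a member, Gpx4-ps2, and reads that fit both it and Gpx4 equally well were not counted by the authors, who kept uniquely mapped reads.

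The levels of the 10 genes spanned a wide range at day 0, compared here as CPM per kilobase of exon. Gpx3 stood at 14187 ± 1208 CPM per kb (SD, n = 4) and ranked 2nd among 23334 genes with a known length. Gpx1 followed at 1222 ± 133 CPM per kb (SD, n = 4), rank 15, and then came Cat at 482 ± 51.4 and Gpx4 at 421 ± 29.5 CPM per kb (SD, n = 4 each), ranks 66 and 71. Cat and Gpx4 were neighbours whose libraries overlapped at day 0. Sod1 stood at 204 ± 14.8, Lpcat3 at 45.6 ± 1.54 and Sod2 at 37.9 ± 2.80 CPM per kb (SD, n = 4 each). Sod2 is placed low on this scale because its annotated exons add up to 10008 bases, against 3970 for Sod1. Acsl4 reached 16.2 ± 4.41 and Aifm2 5.78 ± 0.974 CPM per kb (SD, n = 4 each), ranks 2945 and 6104. The lipid-acting Acsl4 and Lpcat3 and the suppressor Aifm2 thus stood far below the peroxidases in the whole kidney. Alox15 was close to undetected, at 0.0435 CPM per kb.

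**Figure D1:**
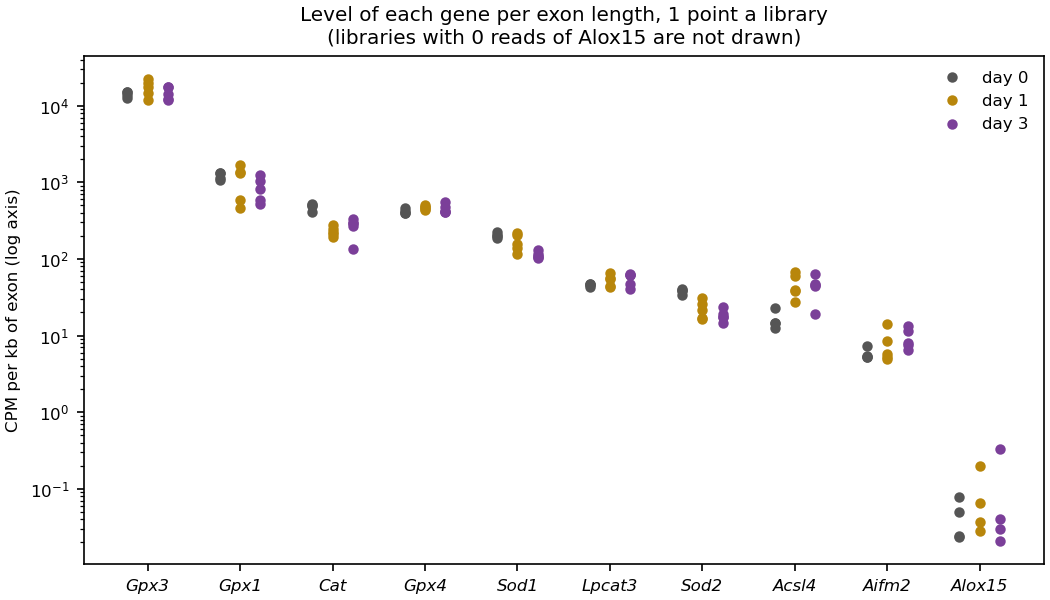
CPM per kilobase of exon (log axis) of the 10 genes, 1 point for each library, with gray points for day 0, gold for day 1 and purple for day 3. Gpx3 lies above all other members in every library, and Alox15 lies lowest, with its 2 libraries at 0 reads not drawn.

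After IRI, Acsl4 rose and Cat and Sod2 fell at day 1, and at day 3 Sod1 had fallen as well, whereas Gpx3 and Gpx4 passed the test on neither day. Of the 9 members that passed the filter on low counts, 3 were called at day 1 against day 0 (edgeR's quasi-likelihood test, adjusted p under 0.05), where 42.1% of all 14300 genes tested were called (23.3% higher, 18.7% lower). At day 3 against day 0, 4 of the 9 were called, against 33.3% of all genes (19.5% higher, 13.8% lower). Both shares of the members lie near those of all genes, so the size of the count is no result about these genes as a group. Between day 1 and day 3, Sod1 alone was called, lower, where 15.9% of all genes were called, 8.52% higher and 7.39% lower. The median log2 fold change of the 9 members was 0.15 at day 1 and 0.04 at day 3, beside 0.0073 and 0.054 over all genes tested. The comparisons of day 1 and day 3 against day 0 share the day 0 libraries. In bulk tissue, fewer cells of a type and less RNA per cell cannot be told apart, and this holds for every change given here.

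**Figure D2:**
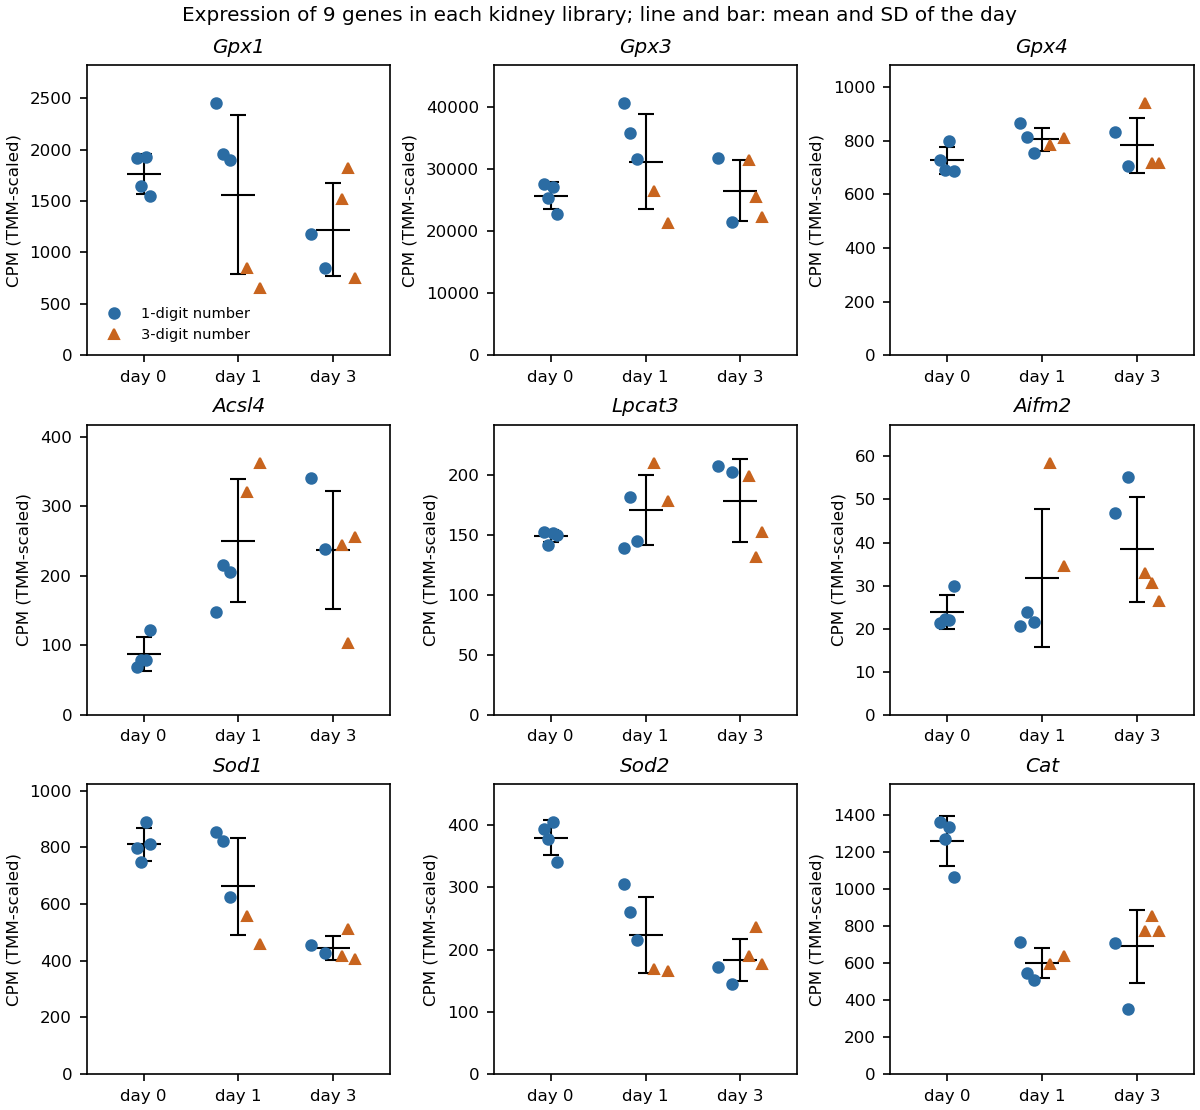
TMM-scaled CPM (linear axes from 0) of the 9 members that passed the filter, by day, with 1 symbol for each library; blue circles mark 1-digit and orange triangles 3-digit libraries, and the line and bar give the mean and SD of the day. Cat and Sod2 lie below every day 0 library on both later days, Acsl4 lies above day 0 at day 1 and overlaps it at day 3, and Gpx4 keeps to a band of 689 to 940 CPM.

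Gpx4, the peroxidase that guards membranes against ferroptosis, varied little between libraries. Its gene spans chr10:80047166-80056439 on the plus strand. It measured 730, 690, 797 and 689 CPM at day 0. At day 1 it measured 783, 809, 867, 812 and 753 CPM, and at day 3 940, 716, 718, 832 and 706 CPM (replicates 1 to 5). The 3 days overlapped, with the highest library at day 3 (replicate 1) and the lowest at day 0 (replicate 4). Against day 0, its log2 fold changes were 0.15 ± 0.13 at day 1 (SE, adjusted p = 0.359) and 0.11 ± 0.13 at day 3 (SE, adjusted p = 0.535), both by edgeR. These standard errors leave room for a small change in either direction.

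Gpx3, the secreted peroxidase (chr11:54902453-54910377, plus strand), took up 2.25% to 3.56% of all reads on genes. It measured 27655, 25341, 27102 and 22788 CPM at day 0. At day 1 the 5 libraries measured 26457, 21262, 40614, 35870 and 31642 CPM, and at day 3 31415, 25455, 22259, 31824 and 21530 CPM. The 3 highest libraries of the series were day 1 replicates 3 and 4 and day 3 replicate 4, all of the 1-digit format, yet the days overlapped. Its log2 fold changes against day 0 were 0.28 ± 0.23 at day 1 (SE, adjusted p = 0.336) and 0.04 ± 0.23 at day 3 (SE, adjusted p = 0.897).

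Gpx1, the cytosolic and mitochondrial peroxidase (chr9:108338903-108340343, plus strand), was the peroxidase that spread most after injury. Day 0 libraries measured 1917, 1646, 1930 and 1550 CPM. Day 1 replicates 1 and 2 fell below all of these at 845 and 656 CPM, whereas replicates 3, 4 and 5 measured 2453, 1959 and 1894 CPM. Day 3 libraries measured 1519, 1817, 752, 1178 and 846 CPM, of which replicate 2 lay within the day 0 range and the other 4 below it. The day 1 values thus lie in 2 sets that match the number format. Neither day was called against day 0, with a log2 fold change of -0.17 ± 0.36 at day 1 (SE, adjusted p = 0.718) and -0.53 ± 0.36 at day 3 (SE, adjusted p = 0.266).

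Acsl4, which activates arachidonic and other polyunsaturated fatty acids for phospholipids, was the member that rose. The gene lies on the minus strand at chrX:142317993-142390535. Day 0 libraries measured 68.7, 79.4, 79.0 and 122 CPM. Day 1 libraries measured 320, 363, 148, 215 and 205 CPM, all above day 0, and day 3 libraries measured 244, 103, 256, 341 and 239 CPM. Day 3 replicate 2, at 103 CPM, was the library that overlapped day 0, and the other 4 lay above it. The rise was 2.87-fold at day 1 (log2 fold change 1.52 ± 0.33, SE, adjusted p = 0.0025) and 2.71-fold at day 3 (1.44 ± 0.32, SE, adjusted p = 0.00459). The 2 days did not separate from each other, with a log2 fold change of -0.08 ± 0.29 (SE, adjusted p = 0.871).

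Lpcat3, the acyltransferase that places polyunsaturated chains into phospholipids (chr6:124663027-124704418, plus strand), stayed closer to its day 0 level. Day 0 libraries lay within 142 to 153 CPM. Day 1 libraries measured 211, 178, 140, 182 and 145 CPM and day 3 libraries 200, 132, 153, 208 and 203 CPM. Each later day had libraries above and below the narrow day 0 range, and neither was called, with log2 fold changes of 0.20 ± 0.16 (SE, adjusted p = 0.324) and 0.26 ± 0.16 (SE, adjusted p = 0.216). Alox15, the lipoxygenase (chr11:70344152-70352031, minus strand), had 1, 1, 3 and 2 reads at day 0. It had 3, 2, 1, 0 and 6 reads at day 1 and 1, 0, 2, 12 and 1 reads at day 3. All but 2 libraries were at or under 3 reads, so no fold change is given and Alox15 was not in the tests.

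Aifm2, the coenzyme Q reductase FSP1 (chr10:61715263-61739260, plus strand), was the least abundant tested member. Day 0 libraries measured 21.3, 22.2, 21.9 and 29.8 CPM, with replicate 4 apart from the others. Day 1 replicates 1 and 2 measured 58.6 and 34.4 CPM, above all of day 0, and replicates 3, 4 and 5 measured 20.5, 23.8 and 21.6 CPM. Day 3 libraries measured 32.9, 30.6, 26.5, 46.9 and 55.3 CPM, of which 4 of 5 lay above day 0. Neither day was called in the comparison by day, with log2 fold changes of 0.42 ± 0.31 (SE, adjusted p = 0.281) and 0.69 ± 0.31 (SE, adjusted p = 0.0959). At day 3 the adjusted p was 0.0421 without day 1 replicate 1, which contributes to the shared spread, and 0.0405 in a fit of days 0 and 3 alone. Aifm2 overlaps H2afy2, Lpcat3 overlaps Emg1 and Sod1 overlaps Scaf4, each on the opposite strand. Reads on the opposite strand amounted to 2.21% to 14.6% of those at Aifm2, 4.36% to 14.01% at Lpcat3 and 0.144% to 0.462% at Sod1. The strand-specific counts leave these reads out.

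Cat, the peroxisomal catalase (chr2:103453849-103485160, minus strand), fell on both days. Day 0 libraries measured 1363, 1273, 1335 and 1066 CPM. Day 1 libraries measured 594, 636, 713, 545 and 510 CPM and day 3 libraries 772, 856, 771, 707 and 353 CPM. No library after IRI reached the lowest day 0 library. Cat was 2.10-fold lower at day 1 (log2 fold change -1.07 ± 0.21, SE, adjusted p = 0.00161) and 1.82-fold lower at day 3 (-0.86 ± 0.21, SE, adjusted p = 0.00742). Day 3 replicate 5 stood apart at 353 CPM, and without it the day 3 change was -0.69 with an adjusted p of 0.00363 by edgeR.

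Sod2, the mitochondrial superoxide dismutase (chr17:13006846-13040063, plus strand), also fell on both days. It measured 395, 378, 405 and 341 CPM at day 0. It measured 169, 165, 306, 261 and 216 CPM at day 1 and 189, 236, 177, 172 and 144 CPM at day 3. Again no library after IRI overlapped day 0. The fall was 1.70-fold at day 1 (log2 fold change -0.77 ± 0.19, SE, adjusted p = 0.00577) and 2.07-fold at day 3 (-1.05 ± 0.19, SE, adjusted p = 0.00122).

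Sod1, the cytosolic superoxide dismutase (chr16:90220754-90226329, plus strand), was called lower at day 3. Day 0 libraries measured 796, 747, 889 and 810 CPM. At day 1 replicates 1 and 2 measured 557 and 458 CPM and replicates 3, 4 and 5 measured 854, 823 and 624 CPM, so the days overlapped. Day 3 libraries measured 418, 512, 407, 455 and 427 CPM, all below day 0. Sod1 was not called at day 1 (log2 fold change -0.29 ± 0.17, SE, adjusted p = 0.193) and was 1.83-fold lower at day 3 (-0.87 ± 0.17, SE, adjusted p = 0.00229). Day 3 against day 1 gave -0.58 ± 0.17 (SE, adjusted p = 0.0304). The call was lost with library totals in place of TMM (adjusted p = 0.0593, edgeR) and, at the same size (-0.58), in a fit of the 2 days alone (0.0893). Among 3-digit libraries alone the difference was -0.19 (adjusted p = 0.433). The adjusted p ran from 0.00789 to 0.0848 when single libraries were left out and exceeded 0.05 without any of day 1 replicates 3, 4 and 5 or day 3 replicates 1, 3 and 4, at log2 fold changes of -0.47 to -0.60.

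The calls of Acsl4, Cat and Sod2 on both days and of Sod1 at day 3 against day 0 held in each leave-one-out fit. Their adjusted p reached at most 0.0245 there, for Cat at day 3.

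Set against day 0 by number format, the 1-digit and 3-digit libraries of the same day gave different members. Day 1 1-digit libraries had 3 members called, Acsl4 higher and Sod2 and Cat lower, beside 58.5% of all genes (28.9% higher, 29.6% lower). Day 1 3-digit libraries had 6 called, Acsl4 and Aifm2 higher and Gpx1, Sod1, Sod2 and Cat lower, beside 41.6% of all genes (22.6% higher, 19% lower). Without day 1 replicate 2, Gpx1 and Sod1 lost their calls (adjusted p = 0.0697 and 0.0892, edgeR), at log2 fold changes of -1.06 and -0.54 against -1.23 and -0.68. In that fit, with 1 library left in the set, 4 members and 3749 of 14226 genes were called, against 5954 of 14300 with all libraries. Without day 1 replicate 1, 5 members and 3420 of 14243 genes were called, and leaving out any other single library gave 6 or 7 members. Day 3 1-digit libraries had 7 called, Acsl4, Lpcat3 and Aifm2 higher and Gpx1, Sod1, Sod2 and Cat lower, beside 53.7% of all genes (28.6% higher, 25.1% lower). Day 3 3-digit libraries had 4 called, Acsl4 higher and Sod1, Sod2 and Cat lower, beside 32.4% of all genes (19.1% higher, 13.3% lower). Acsl4, Sod2 and Cat were therefore called in all 4 sets.

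**Figure D3:**
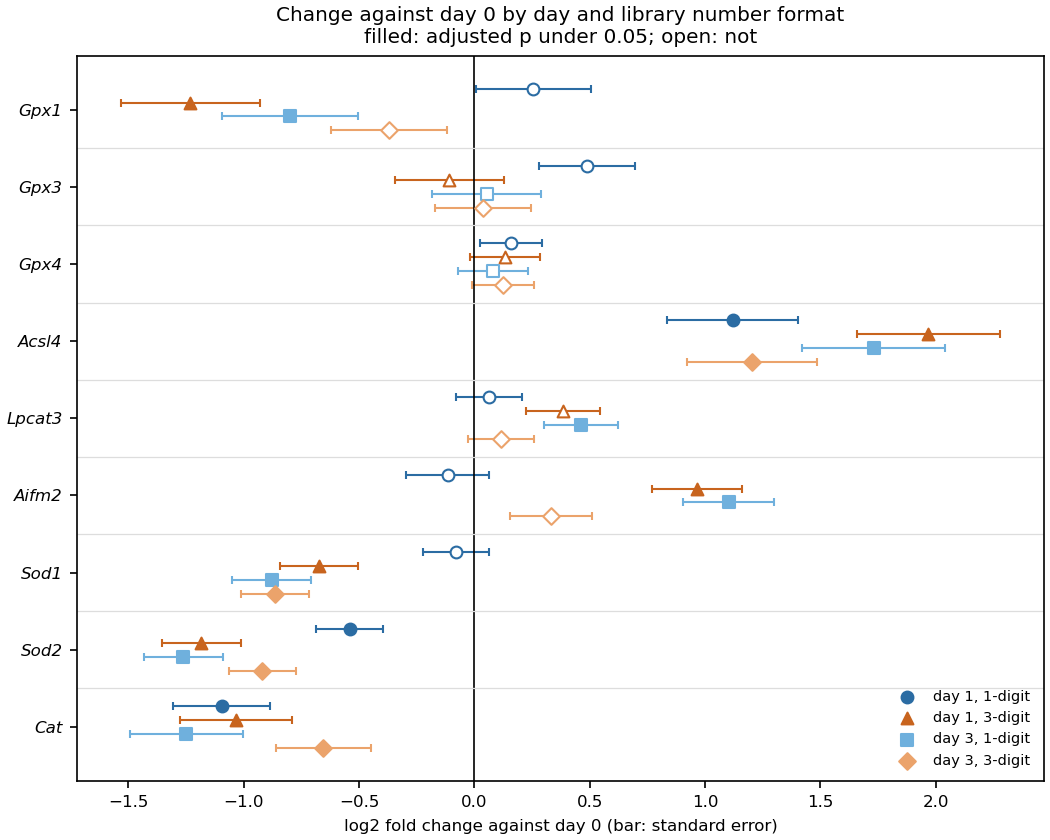
Log2 fold change against day 0 (bar: standard error) of the 9 tested members for the 1-digit and 3-digit libraries of each day, with filled symbols for an adjusted p under 0.05. Acsl4 lies right of 0 and Sod2 and Cat left of 0 in all 4 sets, Gpx4 lies within 0.16 of 0, and Gpx1 and Aifm2 are placed differently by format at day 1.

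Acsl4 was 2.17-fold higher than day 0 in the 1-digit and 3.91-fold higher in the 3-digit libraries of day 1 (adjusted p = 0.00427 and 0.000356, edgeR). At day 3 it was 3.32-fold higher in the 1-digit and 2.30-fold higher in the 3-digit libraries (adjusted p = 0.00057 and 0.0061, edgeR). The format difference itself was not called on either day for Acsl4 (adjusted p = 0.0649 and 0.274, edgeR). At day 1 it was called, however, with library totals in place of TMM (log2 difference 1.06, adjusted p = 0.0273) and without day 3 replicate 2 (0.85, adjusted p = 0.0144). Cat was 2.14-fold and 2.05-fold lower in the 1-digit and 3-digit libraries of day 1. It was 2.38-fold and 1.57-fold lower in those of day 3. The 1-digit log2 fold change of -1.25 ran from -1.83 to -0.81 when single libraries were left out, and was -0.81 without replicate 5. Without replicate 4 the format difference of Cat at day 3 was 1.18, against 0.59 with all libraries. Each of these 2 fits left 1 library in the 1-digit set. The 3-digit value of day 3 had an adjusted p of 0.0279 (edgeR), which exceeded 0.05 without day 0 replicate 1, 2 or 3 or day 3 replicate 1 or 3, up to 0.0786, at nearly the same size, and with library totals in place of TMM (-0.50, adjusted p = 0.055). Sod2 was 1.45-fold and 2.27-fold lower at day 1 and 2.40-fold and 1.89-fold lower at day 3, in the same order of formats.

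Gpx1 showed the widest split by format at day 1. Its 3-digit libraries were 2.80-fold below its 1-digit libraries (log2 difference -1.49 ± 0.31, SE, adjusted p = 0.00366, edgeR). Against day 0 the 3-digit libraries were 2.35-fold lower (adjusted p = 0.0058) and the 1-digit libraries gave a log2 fold change of 0.26 ± 0.25 (SE, adjusted p = 0.395). Without day 1 replicate 2 a single 3-digit library remained, taken to vary like the other libraries. The format difference was then -1.31 with an adjusted p of 0.0553, and the log2 fold change against day 0 was -1.06 with an adjusted p of 0.0697, so that neither was called. At day 3 the format difference of Gpx1 was not called (0.43 ± 0.30, SE, adjusted p = 0.323, edgeR). Against day 0 the 3-digit libraries gave -0.37 ± 0.25 (SE, adjusted p = 0.281), and the 1-digit libraries were called 1.74-fold lower (adjusted p = 0.0346, edgeR). That call was lost without day 3 replicate 5 (log2 fold change -0.55, adjusted p = 0.255) and without day 0 replicate 1 or 3 (adjusted p = 0.0664 and 0.067).

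Aifm2 split the other way. At day 1 its 3-digit libraries were 2.11-fold above the 1-digit libraries (log2 difference 1.08 ± 0.21, SE, adjusted p = 0.00226, edgeR), and at day 3 they were 1.70-fold below them (-0.77 ± 0.21, SE, adjusted p = 0.0264, edgeR). The rise against day 0 was 1.95-fold in day 1 3-digit and 2.15-fold in day 3 1-digit libraries (adjusted p = 0.00194 and 0.000534, edgeR). Day 1 replicate 1 carried much of the first of these values, since without it the log2 fold change fell from 0.96 to 0.49 with an adjusted p of 0.0901, and the format difference from 1.08 to 0.63 with an adjusted p of 0.042. The day 3 format difference had an adjusted p above 0.05 without replicate 2, 3 or 5 of day 3 (adjusted p = 0.0591, 0.0853 and 0.173), at a log2 difference of -0.78, -0.68 and -0.67. In these fits 1176, 1144 and 91 of all genes were called, against 2645 with all libraries.

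Across the members, 4 of 9 differed by format at day 1 (Aifm2 higher and Gpx1, Sod1 and Sod2 lower in 3-digit libraries), beside 35% of all genes (18.6% higher, 16.4% lower), and 1 of 9 at day 3 (Aifm2), beside 18.5% (10.3% higher, 8.22% lower). Sod1 was 1.51-fold and Sod2 1.56-fold lower in the 3-digit libraries of day 1 (adjusted p = 0.0192 and 0.0128, edgeR). Without day 1 replicate 2 the adjusted p of these 2 genes rose to 0.189 and 0.0936, at log2 differences of -0.46 and -0.63 against -0.60 and -0.64 with all libraries, and 1997 of all genes were called, against 5001. Aifm2 was the member still called. Without day 1 replicate 3 or 4 Sod1 gave -0.51 and -0.54 (adjusted p = 0.0539 and 0.0556), and without day 1 replicate 1 Sod2 gave -0.67 (adjusted p = 0.0594). Library totals in place of TMM gave -0.38 for Sod1 (adjusted p = 0.0709) and -0.43 for Sod2 (adjusted p = 0.0442). The test of whether the format difference itself differed between day 3 and day 1 called 3 of 9 members, beside 17.6% of all genes (9.1% higher, 8.45% lower). These were Gpx1 (log2 difference 1.92 ± 0.44, SE, adjusted p = 0.0101), Sod2 (0.99 ± 0.25, SE, adjusted p = 0.0157) and Aifm2 (-1.85 ± 0.30, SE, adjusted p = 0.00185). The adjusted p of Sod2 exceeded 0.05 without day 1 replicate 1 or 2 or day 3 replicate 5 (adjusted p = 0.057, 0.055 and 0.0587), at nearly the same size (1.02, 0.97 and 0.85).

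Lpcat3 was called in 1 of the 4 sets, the 1-digit libraries of day 3, where it was 1.38-fold higher (adjusted p = 0.0266, edgeR). The call was lost without either of the 2 libraries of that set (adjusted p = 0.0944 and 0.0753), without day 0 replicate 2 (0.0604) and with no filter on low counts (0.0597). The log2 fold change was 0.41 to 0.51 in these fits, against 0.46. By format Lpcat3 was not called at day 1, but was with library totals in place of TMM (log2 difference 0.53, adjusted p = 0.0197, edgeR). In the 3-digit libraries of day 1 it was called against day 0 with library totals (0.49, adjusted p = 0.0194) and without day 3 replicate 1 or 2 (adjusted p = 0.0286 and 0.0441). Its format difference at day 3 was called without day 3 replicate 1 (-0.53, adjusted p = 0.0192). Gpx3 in the 1-digit libraries of day 1 had no overlap with day 0, which held for 64.9% of all tested genes (31.7% above, 33.3% below). Its log2 fold change there was 0.49 ± 0.21 (SE, adjusted p = 0.0585, edgeR). DESeq2 gave 0.51 with an adjusted p of 0.0076 for the same comparison. It was called by edgeR in a fit of the 1-digit libraries alone (0.52, adjusted p = 0.026) and without day 3 replicate 1, 2, 4 or 5 (adjusted p = 0.0284 to 0.0454). Gpx4 gave log2 fold changes of 0.16, 0.13, 0.08 and 0.12 in the 4 sets, none of them called.

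Markers of injury and of other cells moved with the members. The summed level of 15 proximal tubule markers was 59435 to 62952 CPM at day 0, 46298 to 61670 CPM in the 1-digit and 25913 to 39546 CPM in the 3-digit libraries of day 1. At day 3 it was 15944 to 28724 CPM in the 1-digit and 28785 to 36478 CPM in the 3-digit libraries. The sets in which Gpx1 was called lower were thus those with the lowest proximal tubule sums on their day, and day 3 replicate 5, lowest for Cat and Sod2, had the lowest sum of all, 15944 CPM. Individually, 5 of the 15 markers fell at day 1 and 5 at day 3, and none rose. By format, 5 fell in the 1-digit and 11 in the 3-digit libraries of day 1, and at day 3 10 fell in the 1-digit libraries and 4 fell and 1 rose in the 3-digit ones. The sum of 10 tubular injury markers, led by Spp1 and Lcn2, rose from 1331 to 1708 CPM at day 0 to 9508 to 38346 CPM at day 1 and 7156 to 44995 CPM at day 3, and 9 of its 10 genes rose on each day. At day 1 it was 9508 to 17663 CPM in 1-digit and 32775 to 38346 CPM in 3-digit libraries, and at day 3 it was 37517 to 44995 and 7156 to 34113 CPM, respectively. The sum was thus higher on each day in the format in which Aifm2 was higher, but Spp1 alone had a mean of 15015.5 CPM over all libraries. By format, 2 of the 10 genes were called at day 1 (Havcr1 and Spp1, higher in 3-digit libraries), beside 35% of all genes. At day 3 it was 1 of 10 (Krt20, lower in 3-digit libraries), beside 18.5% of all genes. Day 3 replicate 2, the library in which Acsl4 overlapped day 0, had the lowest injury sum after IRI. Distal tubule and collecting duct markers, led by Umod and Slc12a1, fell in 4 of 12 at day 1 and 8 of 12 at day 3. Their summed level was 7813 to 10277 CPM at day 0, 4132 to 6703 at day 1 and 2596 to 3990 at day 3.

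Infiltrating cells gave smaller totals. All 8 tested neutrophil markers of 10 listed, led by S100a9 and S100a8, rose on each day, from sums of 1.52 to 2.19 CPM at day 0 to 54.0 to 233 CPM at day 1 and 20.95 to 511 CPM at day 3. Macrophage markers, led by Cd14 and Lyz2, rose in 2 and fell in 1 of 11 at day 1 and rose in 5 and fell in 1 at day 3, with sums of 137 to 230, 140 to 348 and 194 to 506 CPM. By format, 2 rose and 4 fell in the 1-digit and 2 rose and 1 fell in the 3-digit libraries of day 1. At day 3, 2 rose and 2 fell in the 1-digit and 8 rose and 1 fell in the 3-digit libraries. The macrophage sums were 140 to 204 and 337 to 348 CPM in these formats at day 1, and 194 to 210 and 321 to 506 CPM at day 3. Eosinophil markers, of a cell type that expresses Alox15, reached at most 6.36 CPM in sum, and Siglecf had a mean of 0.0553 CPM. Fibroblast and pericyte markers, led by Col3a1 and Col1a2, rose in 3 of 9 at day 1 and 7 of 9 at day 3, with sums of 142 to 152, 166 to 556 and 580 to 1448 CPM. At day 1 the formats did not overlap, with 166 to 234 CPM in the 1-digit and 444 to 556 CPM in the 3-digit libraries. The formats did not overlap for 60.7% of all tested genes either, Acsl4 and Aifm2 among them. Of the 9 markers, 5 were called higher in the 3-digit format, beside 18.6% of all genes. Endothelial markers, led by Plvap and Emcn, rose in 2 and fell in 2 of 9 at day 1, with 0 called at day 3. By format, however, 7 of the 9 rose in the 1-digit and 1 fell in the 3-digit libraries of day 3 (sums of 654 to 1030 and 255 to 446 CPM), and the format difference of that day was called for 6, each lower in the 3-digit format. Podocyte markers, led by Podxl, had 1 of 6 called by day, higher at day 3. T and B cell markers, led by Cd79b and Cd8a, did not exceed 5.08 CPM in sum. Adipocyte markers, led by Cfd and Plin1, reached 39.0 CPM in day 0 replicate 4 and 16.4 CPM in day 1 replicate 2. Urothelial markers, led by Krt5 and Upk1a, reached 49.0 CPM in day 0 replicate 4, 96.4 CPM in day 1 replicate 2 and 36.9 CPM in day 3 replicate 4. Each of these libraries was the highest of its day for Acsl4. Day 0 replicate 4 was also the one apart from its day for Aifm2, and day 1 replicate 2 was the lowest of day 1 for Gpx1 and Sod1. The part of these shifts in the changes of the members was not tested.

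The promoters of the members called on both days are shown because Acsl4 moved one way and Sod2 and Cat the other. RefSeq sequence on GRCm38.p6 was found for 9 of the 10 members, and each line gives the 250 bases before the annotated start, 5′ to 3′ on the strand of the gene. Capitals mark CCAAT boxes (CCAAT) and GC boxes (GGGCGG), read on both strands.
Acsl4: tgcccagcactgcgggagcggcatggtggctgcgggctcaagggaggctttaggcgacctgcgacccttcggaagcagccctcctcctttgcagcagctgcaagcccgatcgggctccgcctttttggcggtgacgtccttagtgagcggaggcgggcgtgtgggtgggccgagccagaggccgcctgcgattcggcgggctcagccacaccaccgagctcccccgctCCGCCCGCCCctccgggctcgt
Sod2: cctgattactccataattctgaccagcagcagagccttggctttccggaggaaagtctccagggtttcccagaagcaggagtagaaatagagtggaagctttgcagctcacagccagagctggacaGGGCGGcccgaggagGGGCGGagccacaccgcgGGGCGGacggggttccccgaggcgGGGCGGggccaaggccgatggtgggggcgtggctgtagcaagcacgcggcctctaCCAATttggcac
Cat: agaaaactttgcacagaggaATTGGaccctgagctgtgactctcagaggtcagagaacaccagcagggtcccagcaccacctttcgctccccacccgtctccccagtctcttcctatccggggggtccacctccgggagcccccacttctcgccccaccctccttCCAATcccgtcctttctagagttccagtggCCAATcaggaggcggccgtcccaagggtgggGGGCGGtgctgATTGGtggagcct
These windows are chrX:142390536-142390785 (minus strand), chr17:13007589-13007838 (plus strand) and chr2:103485154-103485403 (minus strand). Cat held 4 CCAAT boxes and 1 GC box, Sod2 held 1 CCAAT box and 4 GC boxes, and Acsl4 held 2 GC boxes that overlap each other and no CCAAT box. In the 250 bases before the start, a CCAAT box was present in 35.9% and a GC box in 57.6% of 10827 promoters of tested genes. The core of the antioxidant response element (TGACNNNGC, both strands), the site of the stress factor NRF2, was present in 12.2% of these promoters. Among the members it was found in Sod1, once, and in none of the other 8 with a sequence. A TATA box (TATAAA) was present in 6.75% of promoters of tested genes and, among the members, in Sod1. Such matches describe the letters in these windows and are no measure of binding.

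The genes whose levels followed selected members most closely over the 14 libraries were found by the root mean square difference of log2 CPM, each gene centred on its day 0 mean, among 13317 genes with a mean of at least 1 CPM. Gpx3 was nearest to Uqcr10 (0.11), Atp5g3 (0.13) and Ndufs4 (0.13), which encode subunits of the mitochondrial respiratory chain or ATP synthase. Gpx4 was nearest to Tmem14c (0.06), Polr3c (0.09) and Hsd17b10 (0.10). Acsl4 was nearest to Dysf (0.29), Bzw2 (0.31) and Pros1 (0.31), at a larger distance. Cat was nearest to Aifm1 (0.15), Echdc2 (0.16) and Pcmtd1 (0.17), of which the first 2 encode mitochondrial proteins. These are likenesses among 14 libraries that share their days and formats.

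The lists of related genes that follow are given by day, with counts by format, and are read beside the shares of all genes called, 23.3% higher and 18.7% lower at day 1 and 19.5% and 13.8% at day 3. By format these shares were 28.9% and 29.6% in the 1-digit and 22.6% and 19% in the 3-digit libraries of day 1. At day 3 they were 28.6% and 25.1% in the 1-digit and 19.1% and 13.3% in the 3-digit libraries. Among the other glutathione peroxidases, 2 rose on both days and 1 fell at day 3. Of 5 listed, 3 had enough reads to be tested. Gpx7, a peroxidase of the endoplasmic reticulum, rose from a mean of 1.20 CPM at day 0 to 2.86 at day 1 (log2 fold change 1.25 ± 0.29, SE, adjusted p = 0.00397) and 6.01 at day 3 (2.32 ± 0.30, SE, adjusted p = 0.000124). Gpx8, of the same compartment, rose on both days, but was not called in the 1-digit libraries of day 1 (adjusted p = 0.0812). Gpx6 fell from 46.5 to 6.60 CPM at day 3 (-2.83 ± 0.44, SE, adjusted p = 0.00043). By format, 1 of the 3 rose in the 1-digit libraries of day 1, and 2 rose and 1 fell in each of the other 3 sets. Gpx6 was thus called lower already in the 3-digit libraries of day 1 (-1.34, adjusted p = 0.00866), and at day 3 its level in the 3-digit format was below that in the 1-digit format (-1.51, adjusted p = 0.0194). Gpx2 and Gpx5 had at most 29 and 1 reads in any library.

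Genes that supply glutathione, which the peroxidases consume, were called in both directions. Of 11 genes for cystine import, glutathione synthesis and recycling, 3 rose and 3 fell at day 1, and 2 rose and 4 fell at day 3, with median log2 fold changes of -0.21 and -0.57. By format, 3 rose and 4 fell in the 1-digit and 5 rose and 4 fell in the 3-digit libraries of day 1, and 4 rose and 5 fell and 2 rose and 4 fell in those of day 3. Slc7a11, the cystine importer whose block can start ferroptosis, rose from 0.224 CPM at day 0 to 3.56 at day 1 and 3.95 at day 3 (log2 fold changes 3.94 and 4.09, adjusted p = 0.000569 and 0.000635). It remained a gene of few reads, with 2 to 114 in a library. Cth, an enzyme that makes cysteine from methionine, fell by 1.36 on the log2 scale at day 1 (adjusted p = 0.00327), and Cbs, the step before it, fell by 2.24 at day 3 (adjusted p = 0.00806). Cbs was called lower in all 4 sets by format, at -0.98 and -2.47 in the 1-digit and 3-digit format of day 1 and -3.98 and -1.69 in those of day 3. The subunits of the enzyme that starts glutathione synthesis, Gclc and Gclm, did not rise on either day. Gclc fell by 0.82 at day 1 (adjusted p = 0.0492), a change of -1.18 in the libraries of 1-digit format (adjusted p = 0.00627) that was -0.42 and not called in those of 3-digit format (adjusted p = 0.364), though the format difference was not called (0.76, adjusted p = 0.119). Gclm fell in the 1-digit libraries of both days, and its format difference at day 1 was 0.98 (adjusted p = 0.00689). Gss, the enzyme of the last step, fell on both days, but was not called in the 1-digit libraries of day 1 (-0.30, adjusted p = 0.0846).

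Peroxiredoxins, thioredoxins and related genes, a list that also holds the thioredoxin inhibitor Txnip and the extracellular superoxide dismutase Sod3, rose in 5 of 13 and fell in 0 of 13 at day 1, against 23.3% higher and 18.7% lower among all genes, and rose in 3 and fell in 1 at day 3, against 19.5% and 13.8%. Srxn1, which restores overoxidised peroxiredoxins, rose from 83.3 to 560 CPM at day 1 (log2 fold change 2.75 ± 0.44, SE, adjusted p = 0.000361) and stood at 309 CPM at day 3 (1.89 ± 0.42, SE, adjusted p = 0.00414). Txnrd1, a thioredoxin reductase, rose at day 1 together with Prdx6, Txn1 and Txnip. By format, 6 rose and 1 fell in the 1-digit and 4 rose and 1 fell in the 3-digit libraries of day 1, and 4 rose and 3 fell and 3 rose and 1 fell in those of day 3. Txn2, the mitochondrial thioredoxin, fell by 0.43 at day 3 (adjusted p = 0.00833). None of Prdx1 to Prdx5 was called on either day, whereas by format Prdx4 rose in the 1-digit libraries of day 1 and the 3-digit libraries of day 3, and Prdx3 fell in the 1-digit libraries of both days.

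Of 21 further genes of lipid supply and lipid oxidation, 19 were tested, of which 2 rose and 7 fell at day 1 and 3 rose and 8 fell at day 3 (median log2 fold changes -0.41 and -0.54). By format, 1 rose and 7 fell in the 1-digit and 3 rose and 9 fell in the 3-digit libraries of day 1, and 5 rose and 9 fell and 3 rose and 8 fell in those of day 3. The desaturases Scd1, Fads1 and Fads2 and the elongase Elovl5 fell on both days, whereas the desaturase Scd2 fell at day 1 (-1.43, adjusted p = 0.0038) and was not called at day 3 (-0.54, adjusted p = 0.209). Scd1, which makes the monounsaturated fatty acids known to counter ferroptosis, fell from 145 to 23.3 CPM at day 1 (-2.64 ± 0.43, SE, adjusted p = 0.000411) and 16.6 CPM at day 3 (-3.13 ± 0.43, SE, adjusted p = 0.000207). Among the genes that rose were Aloxe3 at day 1 and Alox5 at day 3, both lipoxygenases at low levels. Aloxe3 went from 0.136 CPM, less than 3 reads make in a day 0 library, to 2.79 CPM (adjusted p = 0.011), and no fold change is given for it. Alox5 went from 0.357 to 3.08 CPM (log2 fold change 3.08 ± 0.69, SE, adjusted p = 0.00443). Acsl5 rose on both days, but by format it was not called in the 1-digit libraries of day 1 (0.28, adjusted p = 0.112) and was higher in the 3-digit ones (difference 0.75, adjusted p = 0.00544). Acsl3 fell at day 3, and Acsl1 was not called by day.

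Of 12 genes listed with the radical-trapping suppressors, the wider group to which Aifm2 belongs, 2 rose and 4 fell at day 1 and 3 rose and 4 fell at day 3. The list is mixed, so its counts are not counts of suppressors alone. It also holds the regulators Trp53 and Nfe2l2, and Dhcr7, which works the other way and is among the falls of both days. By format, 2 rose and 7 fell in the 1-digit and 5 rose and 2 fell in the 3-digit libraries of day 1, and 3 rose and 6 fell and 3 rose and 3 fell in those of day 3. Gch1, the entry enzyme of tetrahydrobiopterin synthesis, rose from 1.70 to 11.7 CPM at day 1 (2.78 ± 0.43, SE, adjusted p = 0.000298). Nqo1, a quinone reductase, rose from 46.2 to 173 CPM at day 3 (1.91 ± 0.64, SE, adjusted p = 0.0341). At day 1 it split by format, with a log2 fold change of 2.28 in the 3-digit libraries (adjusted p = 0.00275), one of -0.13 in those of 1-digit format (adjusted p = 0.828) and a difference of 2.41 between them (adjusted p = 0.00484). Coq2, Pdss1 and Pdss2, which take part in the synthesis of coenzyme Q, the substrate of Aifm2, fell on both days, though Coq2 was not called in the 3-digit libraries (adjusted p = 0.0537 and 0.0591). Pdss2 fell by 0.92 at day 1 (adjusted p = 0.00639). Dhcr7, which uses up a sterol that traps lipid radicals, fell by 1.08 at day 3 (adjusted p = 0.00959).

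Of 15 iron genes, 2 rose and 6 fell at day 1 and 1 rose and 5 fell at day 3. By format, 2 rose and 7 fell in the 1-digit and 3 rose and 7 fell in the 3-digit libraries of day 1, and 3 rose and 4 fell and 2 rose and 3 fell in those of day 3. Hmox1, which frees iron from heme, rose from 39.0 to 703 CPM at day 1 (4.17 ± 0.45, SE, adjusted p = 2.48e-05) and stood at 147 CPM at day 3 (1.91 ± 0.40, SE, adjusted p = 0.00311). Slc39a8, a metal importer, fell from 100.5 CPM at day 0 to 20.5 at day 1 (-2.30 ± 0.25, SE, adjusted p = 2.7e-05) and 20.8 at day 3. The ferritin light chain Ftl1 rose at day 1, while the heavy chain Fth1 was not called by day (0.77, adjusted p = 0.0866). By format Fth1 rose in the 3-digit libraries of day 1 (1.21, adjusted p = 0.00368) and the 1-digit libraries of day 3 (1.03, adjusted p = 0.00686). Its format difference was 0.83 at day 1 and -1.06 at day 3 (adjusted p = 0.0439 and 0.0278), and these differed from each other (adjusted p = 0.00854).

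Of 10 tested genes of selenoprotein synthesis and selenium uptake, on which the peroxidases depend, 3 rose and 4 fell at day 1 and 2 rose and 3 fell at day 3. By format, 3 rose and 6 fell in the 1-digit and 2 rose and 3 fell in the 3-digit libraries of day 1, and 2 rose and 5 fell and 1 rose and 1 fell in those of day 3. The selenoprotein P receptors moved apart. Lrp2, megalin, the receptor of the proximal tubule, fell from 3247 to 729 CPM at day 1 (-2.15 ± 0.60, SE, adjusted p = 0.0107) and was at 992 CPM at day 3, when it was not called in the 3-digit libraries (-1.13, adjusted p = 0.056) and stood higher in them than in the 1-digit ones (2.56, adjusted p = 0.0104). Lrp8 rose from 6.79 to 19.3 CPM at day 1 (1.51 ± 0.38, SE, adjusted p = 0.00635), and was not called in the 3-digit libraries of day 3 (1.10, adjusted p = 0.0564). Sephs2, which makes the selenium donor, and Sepsecs, which makes selenocysteine on its tRNA, fell at day 1.

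Of 18 genes of peroxisome assembly and content, none rose and 3 fell at day 1 and 2 rose and 3 fell at day 3, with median log2 fold changes of -0.13 and -0.09. By format, 2 rose and 8 fell in the 1-digit libraries of day 1 and 6 rose and 4 fell in those of day 3, where 58.5% and 53.7% of all genes were called. The 3-digit libraries had 1 rise and 2 falls at day 1 and 0 rises and 2 falls at day 3, where 41.6% and 32.4% of all genes were called. Pxmp2, a peroxisomal membrane protein, fell from 63.9 to 25.4 CPM at day 1 (-1.33 ± 0.43, SE, adjusted p = 0.0221) and 23.5 CPM at day 3. Pex11a, which takes part in peroxisome division, rose from 33.7 to 75.8 CPM at day 3 (1.17 ± 0.40, SE, adjusted p = 0.0355). By format it rose in the 1-digit libraries of that day (1.78) and was not called in the 3-digit ones (0.55), with a difference of -1.23 (adjusted p = 0.00787). Abcd3, a peroxisomal membrane transporter, was not called on either day but rose in the 1-digit libraries of day 3.

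**Figure D4:**
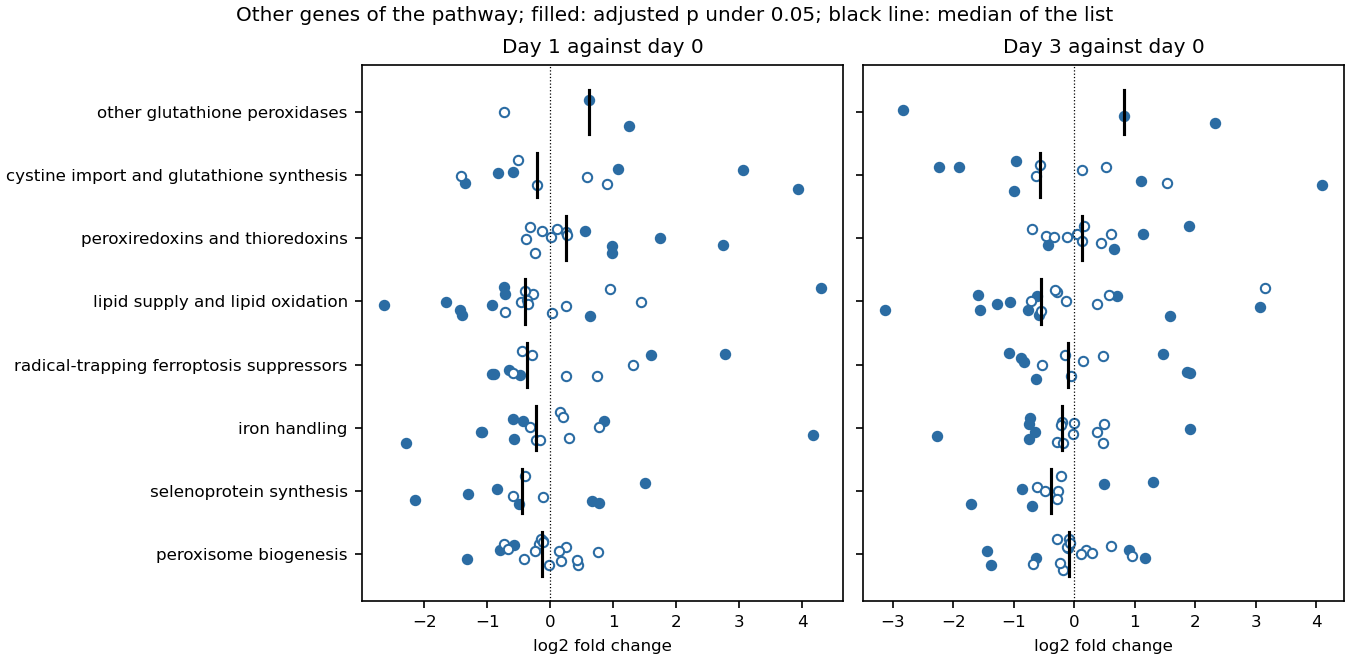
Log2 fold change at day 1 (left) and day 3 (right) against day 0 for each tested gene of 8 lists of related genes, with filled points for an adjusted p under 0.05 and a black line at the median of the list. Slc7a11, Aloxe3 (fitted from a day 0 level under 3 reads) and Hmox1 lie farthest right at day 1, and Scd1 and Gpx6 farthest left at day 3.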

How the data were processed

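Total RNA of 14 mouse kidneys was sequenced with the Illumina TruSeq kit named in the labels. The authors deposited raw counts of reads per gene from STAR, and the submitters' processing notes also name Trimmomatic and mm10, with versions not given in the sources used here. The column of the opposite strand held 98.5% to 98.7% of strand-assigned reads and was used. STAR's lines without a gene, 29.0% to 38.3% of reads, were left out.

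Counts were tested in R 4.3.3 with edgeR 4.0.16 (quasi-likelihood test, TMM, filterByExpr by day, 14300 genes, Benjamini-Hochberg over all of them), with 1 term per day or per day and number format over all 14 libraries. An adjusted p under 0.05 was a call. The log2 CPM used a prior count of 2. Positions and exon lengths came from GENCODE M21 (GRCm38). On simulated counts of 14154 genes for day 1 against day 0, 68 of 100 genes changed by 1 and 92 of 100 changed by 2 on the log2 scale were recovered, with 7 false calls of 167. The simulated spread came from the fit by day and format, with no format difference within a day. Recovery in the real comparison by day may therefore be lower. For the format comparison at day 1, 46 and 81 of 100 were recovered.

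The members and lists were chosen with earlier results of these data known. Named were all members, the largest called rise and fall of each related list on each day among genes with a mean of at least 1 CPM, the 2 most abundant genes of each marker list and the 3 nearest genes of Gpx3, Gpx4, Acsl4 and Cat. Some genes that this rule names are not reported here. Other genes were named after their values were seen. Alternatives were DESeq2 1.42.0, other scalings, filters, columns and fits, and leaving out each library.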

Additional observations from a re-analysis of the deposited data

Results flagged for a closer look

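In Aifm2 at day 0, replicate 4 was highest at 4.90 log2 CPM, while the other 3 libraries lay within 4.42 to 4.48. In Cat at day 3, replicate 5 was lowest at 8.46 log2 CPM, while the other 4 lay within 9.47 to 9.74. Each of these libraries stood apart from its group by Dixon's criterion, which was met in 2 of 27 groups of member values, where chance gives about 1 in 20, or 1.35. A total of 3 members differed in their format difference (3-digit minus 1-digit) between the days by a test of that difference in edgeR. Gpx1 differed by 1.92, from -1.49 at day 1 to 0.43 at day 3. Sod2 differed by 0.99, from -0.64 to 0.34. Aifm2 differed by -1.85, from 1.08 to -0.77.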

How the results depend on the processing

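Acsl4 higher and Cat and Sod2 lower on both days, and Sod1 lower at day 3, against day 0 kept their direction and side of the threshold in every alternative tried for the comparisons by day, apart from a minimum absolute log2 change of 1, which Cat and Sod1 at day 3 and Sod2 at day 1 did not reach. By day, 3 members were called at day 1 and 4 at day 3 against day 0, and 1 between the later days. A minimum absolute log2 change of 1 left 2 at day 3 against day 0, 0 between the later days, 4 in day 3 1-digit and 1 in day 3 3-digit libraries against day 0, 2 for the format at day 1 and 0 at day 3. Only 1-digit libraries gave 4 at day 1, with Gpx3 added (0.52, adjusted p = 0.026, edgeR), 7 at day 3 against day 0 and 5 between the later days, where 8839, 8119 and 5194 of 14430 genes were called. Only 3-digit libraries gave 6 at day 1 against day 0 and 0 between the later days. Library totals without TMM and a fit of the 2 days alone each gave 0 between the later days. The difference of format differences gave 5 with library totals and 5 with DESeq2, against 3. Leaving out single libraries gave 0 to 1 between the later days, 1 to 5 for the format at day 1 (1 without day 1 replicate 2), 0 to 2 for the format at day 3 (0 without replicate 2, 3 or 5 of that day, 2 without replicate 1 or 4; over all genes 91 to 4771 were called) and 2 to 5 for the difference between them (5 without day 3 replicate 1). The cause was not tested.

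Same-numbered libraries had correlations of -0.17 to 0.26 in 13 pairs, with 4 of them over 0.1. Pairs of unlike number were not computed for comparison, so pairing is left undecided. With the replicate number as a replicate block, 0 members were called between day 1 and day 3 (Sod1 -0.55, adjusted p = 0.0611, edgeR), while 3 and 4 were called at day 1 and day 3 against day 0.

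Directions that turned were those of differences that were not called. On the log2 scale, 1-digit libraries alone gave 0.29 for Gpx1 and -0.083 for Aifm2 at day 1, and 0.60 for Acsl4 and -0.17 for Cat between the later days. 3-digit libraries alone gave -0.10 for Gpx3 at day 1, and 0.86 for Gpx1, 0.14 for Gpx3, -0.27 for Lpcat3, -0.63 for Aifm2 and 0.26 for Sod2 between the later days. Library totals gave 0.11 for Gpx4 and 0.035 for Acsl4 between the later days, -0.043 for Lpcat3 in day 1 1-digit libraries, 0.19 for Gpx4 by format at day 1, 0.030 for Gpx3 by format at day 3 and -0.10 for Gpx4 in the difference between formats. Library totals moved the median of all genes at day 3 against day 0 from 0.054 to 0.19, and the calls from 2783 higher and 1974 lower to 3625 and 1286.

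Leaving out single libraries also turned such values, again on the log2 scale. At day 1 against day 0, this moved Gpx1 from -0.39 to 0.021. At day 3 against day 0, this moved Gpx3 from -0.029 to 0.12. Between the later days, this moved Acsl4 from -0.25 to 0.11 and Lpcat3 from -0.0059 to 0.16. In day 1 1-digit libraries against day 0, this moved Lpcat3 from -0.063 to 0.14, Aifm2 from -0.18 to 0.010 and Sod1 from -0.16 to 0.052. In day 1 3-digit libraries, this moved Gpx3 from -0.31 to 0.041. In day 3 1-digit libraries, this moved Gpx3 from -0.25 to 0.33 and Gpx4 from -0.039 to 0.22. In day 3 3-digit libraries, this moved Gpx3 from -0.11 to 0.11, Gpx4 from -0.017 to 0.19 and Lpcat3 from -0.066 to 0.24. By format at day 1, this moved Gpx4 from -0.078 to 0.024 and Cat from -0.034 to 0.22. By format at day 3, this moved Gpx3 from -0.29 to 0.29, Gpx4 from -0.10 to 0.16 and Sod1 from -0.096 to 0.084. In the difference between formats, this moved Gpx4 from -0.076 to 0.19.

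The depth of 12485579 to 20476979 reads on genes gave Aifm2, the least abundant tested member, at least 268 reads in each library, and left Alox15 with counts too low for a test. The sets by format hold 2 or 3 libraries each, so that single libraries decide several of their calls.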
